A study of Mus musculus with 17 samples.

Results

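The genes described here encode dystrophin, its paralogue utrophin and proteins that stand with them at the muscle cell membrane: Dmd, Utrn, Sntb1, Dag1, Sgca, Sgcb, Sgcd, Lama2 and Dysf. They were chosen by symbol from the raw count table, in which 8 of the 9 have a row, out of 15062 genes. Dmd was not analysed here. All 8 passed the filter on low counts. The samples were 17 RNA-seq libraries of C2C12, an established mouse myoblast line, kept in serum-containing medium. Each line carried the empty vector pMSCV, SRF (serum response factor, a transcription factor), or a fusion of SRF with a partner gene. The fusions were SRF-PDGFRB, with 2 libraries, and SRF-RELA, SRF-ICA1L and SRF-FOXO1, with 3 each like the other groups, and pMSCV was the single empty-vector control that all comparisons with it share. The labels name pMSCV as the treatment of the control samples, and a promoter, a clone or a time point is not given in the sources used here. Nor do they say whether the replicates of a group were separate cultures, so p-values measure only the spread between these libraries.

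In muscle, dystrophin and utrophin tie cortical actin to a complex in the plasma membrane. Within that complex, beta-dystroglycan spans the membrane, alpha-dystroglycan binds laminin outside it, the sarcoglycans form a side unit that stabilises dystroglycan, and syntrophins attach signalling proteins from the inside. Myoblasts are known to carry utrophin and dystroglycan before they fuse, while dystrophin and alpha-sarcoglycan (Sgca) belong to differentiated fibres, and loss of single members causes muscular dystrophies.

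Library totals lay between 20901442 and 23543734 counts. Srf lay between 66.6 and 93.8 CPM (counts scaled to library size, with edgeR's TMM factors) in pMSCV and between 678 and 1673 CPM in SRF. It lay between 71.8 and 105 CPM in SRF-FOXO1, 70.5 and 81.4 CPM in SRF-PDGFRB and 85.0 and 154.5 CPM in SRF-RELA. These ranges overlap that of pMSCV, so the Srf row does not mark the lines labelled with those fusions. In SRF-ICA1L it lay between 121 and 279 CPM, above all pMSCV libraries. Of the myoblast markers, Myod1 was at 5.69 to 111 CPM, Myf5 at 4.41 to 43.1 CPM and Des at 44.5 to 893 CPM over the 17 libraries. The 2 libraries labelled SRF-PDGFRB stood far apart: the summed level of 19 muscle differentiation genes was 51.9 CPM in replicate 1 and 1919 CPM in replicate 2, the lowest and the highest of all libraries. Of 11 markers of other lineages 3 were measured, and their sum ran from 34.5 to 212 CPM in pMSCV, 66.4 to 81.1 CPM in SRF and 14.3 to 26.0 CPM in SRF-FOXO1. In the other fusion lines it ran from 17.4 CPM (SRF-PDGFRB) to 108 CPM (SRF-RELA). Most of it was Tubb3, a neuronal tubulin (11.6 to 206 CPM), while Cd68 of macrophages reached 5.33 CPM and Cdh5 of endothelium 2.72 CPM. Ptprc (leukocytes), Epcam and Krt5 (epithelium) were not among the rows used here. The part of such cells in the members' levels was not tested.

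The promoters of 3 members are shown because their genes had the most marked patterns: replicate number took the largest shares of the variance of Lama2 and Sgca, and Sgcd lay above the empty-vector libraries in 3 of the fusion lines. Each runs from 250 bases before to 50 bases after the RefSeq start, 5′ to 3′ on the gene's strand (GRCm38.p6), with matches to the CArG box (the SRF recognition element) and the E-box CANNTG (the element of myogenic bHLH factors) in capitals.
Lama2, chr10:27616893-27617192, minus strand: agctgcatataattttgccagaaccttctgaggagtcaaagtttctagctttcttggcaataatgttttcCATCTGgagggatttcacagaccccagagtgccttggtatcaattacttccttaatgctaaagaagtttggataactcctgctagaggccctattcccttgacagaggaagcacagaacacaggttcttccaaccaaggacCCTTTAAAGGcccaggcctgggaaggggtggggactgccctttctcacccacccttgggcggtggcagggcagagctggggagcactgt
Sgca, chr11:94976278-94976577, minus strand: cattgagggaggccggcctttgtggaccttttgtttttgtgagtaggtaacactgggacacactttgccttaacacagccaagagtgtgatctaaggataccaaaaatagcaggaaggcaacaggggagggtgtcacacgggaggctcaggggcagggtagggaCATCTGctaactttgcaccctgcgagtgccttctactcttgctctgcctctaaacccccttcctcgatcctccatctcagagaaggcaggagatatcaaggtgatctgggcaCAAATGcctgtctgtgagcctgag
Sgcd, chr11:47379276-47379575, minus strand: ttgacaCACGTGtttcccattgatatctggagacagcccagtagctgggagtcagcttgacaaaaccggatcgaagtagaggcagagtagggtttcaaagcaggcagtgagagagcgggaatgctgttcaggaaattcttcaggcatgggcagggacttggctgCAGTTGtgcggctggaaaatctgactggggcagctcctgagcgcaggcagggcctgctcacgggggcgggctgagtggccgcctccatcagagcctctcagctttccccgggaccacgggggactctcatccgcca
RefSeq gave 9 such windows for 7 of the 8 members, and none for Sntb1. The Lama2 window was the only one of the 9 with a CArG box, the run CCTTTAAAGG that starts 39 bases before the start site, and 1.63% of the 32851 mouse promoter windows searched on both strands held one. E-boxes began at -86 and 27 in Sgca, at -244 and -86 in Sgcd and at -180 in Lama2, but 72.3% of all windows held this short motif. The Sgcd and Lama2 windows lie inside the longer gene models of the annotation used for positions, so each is 1 of its gene's possible starts. The position of the Lama2 CArG box is relative to that RefSeq start only. A match describes letters only, and binding was not measured.

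Per kilobase of exon (the union of GENCODE M21 exons), the scale on which genes can be compared, Dag1, Sgcb and Utrn were the most abundant members. The median over the 17 libraries was 50.9 CPM per kb for Dag1, 17.8 for Sgcb and 12.7 for Utrn. The other members lay far below, at 2.21 CPM per kb for Sntb1, 1.79 for Sgcd, 1.77 for Sgca, 0.948 for Lama2 and 0.933 for Dysf. The same 3 abundant genes were also the steadiest, with a ratio of the highest to the lowest library of 1.65 for Dag1, 2.08 for Utrn and 2.21 for Sgcb. That ratio was 5.34 for Dysf and 6.15 for Sgcd, and it reached 38.3 for Lama2, 38.8 for Sntb1 and 41.0 for Sgca. In each of these last 3 the lowest library was SRF-PDGFRB replicate 1, where Sgca rested on 9 counts, Sntb1 on 15 and Lama2 on 23. In bulk libraries, fewer cells that express a gene and less of its RNA per cell cannot be told apart.

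**Figure D1:**
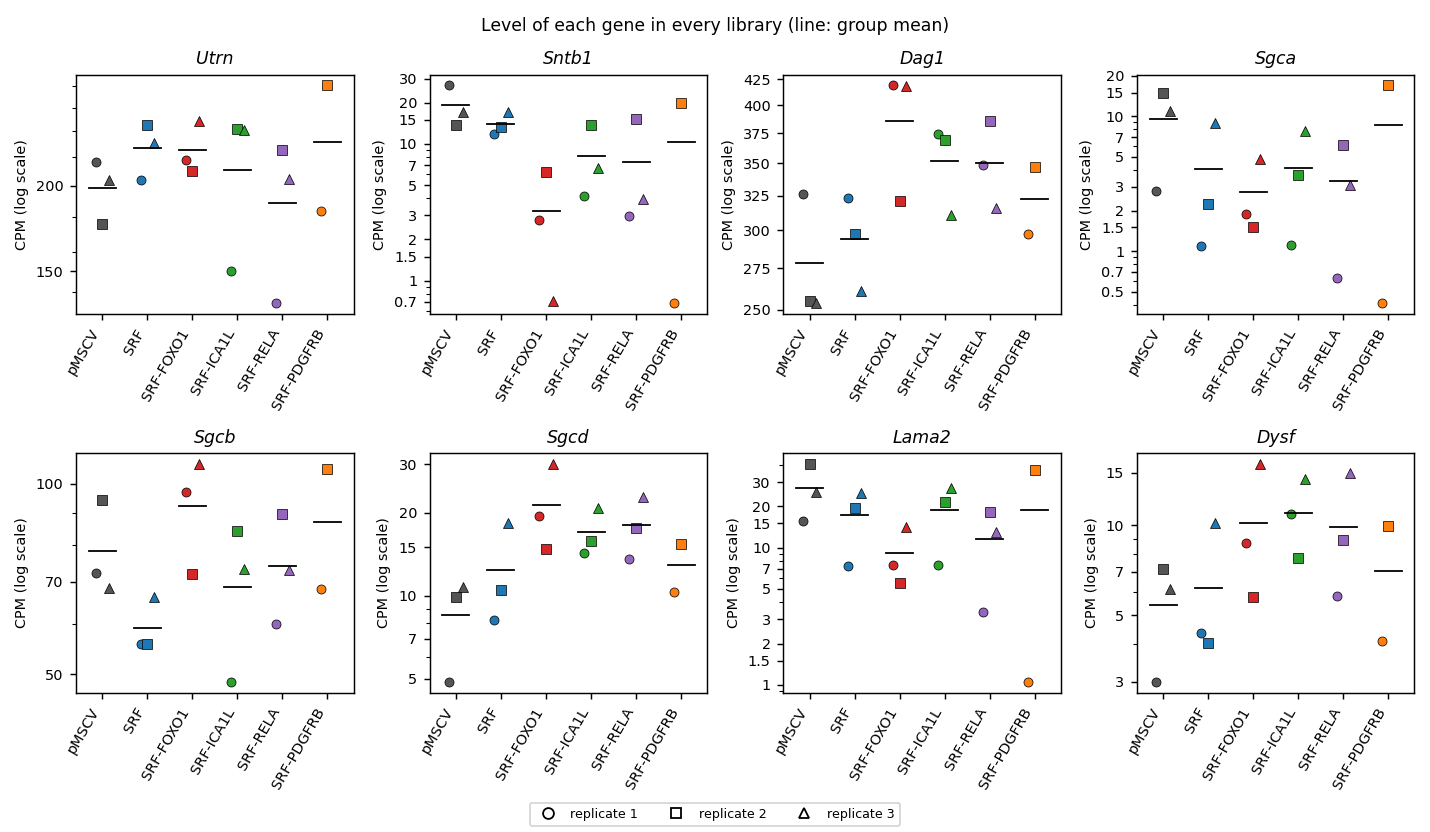
Level in CPM (log scale, a separate range for each gene) of the 8 genes in each of the 17 libraries, by line; marker shapes give the replicate number and bars the group mean. Sgca, Lama2 and Sntb1 span the widest ranges, with SRF-PDGFRB replicate 1 lowest for each, whereas Dag1 stays between 254 and 419 CPM.

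On average, Sgcd, Dag1 and Dysf were higher and Sntb1, Sgca and Lama2 lower in SRF-FOXO1, SRF-RELA and SRF-ICA1L than in pMSCV. Utrn and Sgcb stayed within 0.24 of pMSCV on the log2 scale in these lines. The directions of the other genes were the same in SRF and SRF-PDGFRB, so they were not particular to those fusions. In SRF the log2 fold changes were 0.54 for Sgcd, 0.08 for Dag1 and 0.19 for Dysf. They were -0.44 for Sntb1, -1.235 for Sgca and -0.65 for Lama2. Several of the values in SRF and SRF-PDGFRB changed sign when single libraries were left out. No member passed the test without a block for replicate number. In the edgeR fit of all 17 libraries, 0 of the 8 members passed an adjusted p of 0.05 in any of the 9 comparisons made, 5 with pMSCV and 4 with SRF, nor in the F test of any difference among the 6 groups, which 0.0797% of all genes passed. The background was low too: 0.00664% of genes were called for SRF against pMSCV, 0.710% for SRF-FOXO1, 0.0199% for SRF-PDGFRB, and 0% each for SRF-RELA and SRF-ICA1L. Against SRF it was 0.00664% for SRF-FOXO1, 0% for SRF-ICA1L, 0.00664% for SRF-RELA and 0.0531% for SRF-PDGFRB. At an unadjusted p under 0.05 the members numbered 3 in SRF-FOXO1 against pMSCV, 1 each in SRF-RELA and SRF-ICA1L, and 0 in SRF and SRF-PDGFRB. Of all genes, 20.9% reached that level in SRF-FOXO1, 8.05% in SRF-RELA, 6.23% in SRF-ICA1L, 3.34% in SRF and 7.70% in SRF-PDGFRB. Against SRF the members at that level numbered 3 in SRF-FOXO1 (19.2% of all genes) and 0 in SRF-ICA1L (1.56%), SRF-RELA (3.21%) and SRF-PDGFRB (5.03%). In the F test among the 6 groups it was 1 member, Sgcd (unadjusted p 0.0438 in edgeR), beside 8.68% of all genes. DESeq2, run on the same 17 libraries, called 3 members in SRF-FOXO1 against pMSCV, where it called 9.07% of all genes with an adjusted p, and 0 in each of the other 8 comparisons. Its share of all genes there was 0.0266% for SRF, 0.318% for SRF-ICA1L, 0.770% for SRF-RELA and 0.475% for SRF-PDGFRB. Against SRF it was 4.30% for SRF-FOXO1, 0.0133% for SRF-ICA1L, 0.0599% for SRF-RELA and 0.386% for SRF-PDGFRB.

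Replicate number was a large source of spread. Across SRF-RELA, SRF-ICA1L, SRF and pMSCV, 12 libraries in all, those with the same number deviated together, so each comparison among them was also fitted with the number as a block, in which 14639 genes were tested. With the block, Sgcd rose in SRF-RELA and SRF-ICA1L against pMSCV, and Lama2 fell in SRF-RELA. That is 1 of 8 members for SRF-ICA1L, where 2.99% of all genes were called, and 2 of 8 for SRF-RELA, where 6.48% were. For SRF against pMSCV 0 of 8 were called, beside 0.0137% of all genes, and 4 reached an unadjusted p under 0.05 beside 15.1%. With the block 6 of 8 members reached that unadjusted level in SRF-RELA and 6 in SRF-ICA1L, where 22.4% and 19.0% of all genes did. DESeq2 with the same block called 4 members in SRF-ICA1L (Sntb1, Dag1, Sgcd and Dysf) and 5 in SRF-RELA (Sntb1, Dag1, Sgca, Sgcd and Lama2), where it called 7.91% and 10.8% of all genes. It called 0 members in SRF (2.16% of genes), or against SRF in SRF-ICA1L (1.23%) and SRF-RELA (4.67%). When 1 library at a time was left out of edgeR's blocked fit, the count for SRF-ICA1L was 2 without pMSCV replicate 2 and 0 without replicate 1 of pMSCV or replicate 1 or 2 of SRF-ICA1L. For SRF-RELA it was 4 without replicate 2 of pMSCV or of SRF-RELA, and 1 without pMSCV replicate 1 or SRF-RELA replicate 1 or 3. Against SRF, 0 of 8 were called with the block in SRF-RELA (0.656% of genes) or SRF-ICA1L (0.0956%). In each, 3 members were at an unadjusted p under 0.05, beside 17% and 9.08% of all genes.

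**Figure D2:**
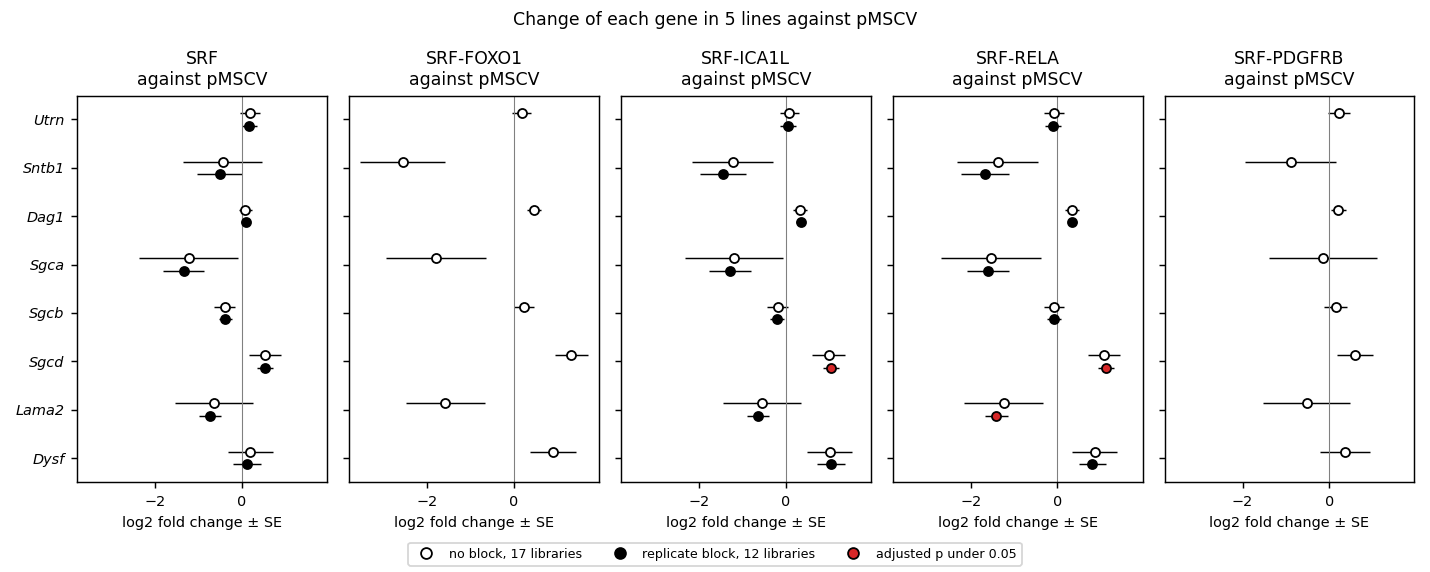
Log2 fold change against pMSCV with its standard error (horizontal bars) for the 8 genes in 5 lines; open points are the fit of 17 libraries without a block, filled points the fit of 12 libraries with replicate number as a block, and red points have an adjusted p under 0.05. Only Sgcd in SRF-RELA and SRF-ICA1L and Lama2 in SRF-RELA are red, and blocked and unblocked values lie close together while the blocked bars are shorter for Sgca, Sgcd and Lama2.

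Utrophin (Utrn, ENSMUSG00000019820, chromosome 10:12382188-12869365 in GRCm38, minus strand) is the actin-binding linker of the set. Replicates 1, 2 and 3 of pMSCV gave 216, 176 and 204 CPM, and those of SRF 204, 246 and 231 CPM. In the fusion lines the same replicates gave 218, 209.7 and 248 CPM for SRF-FOXO1, 135, 226 and 205 CPM for SRF-RELA and 149.8, 242 and 241 CPM for SRF-ICA1L. In SRF-PDGFRB it was at 184 and 280.1 CPM. The ranges of all 6 lines overlapped, and replicate 1 was the lowest library in SRF, SRF-ICA1L, SRF-RELA and SRF-PDGFRB. Log2 fold changes against pMSCV ran from -0.08 (SE 0.23) in SRF-RELA to 0.22 (SE 0.25) in SRF-PDGFRB, so the differences were about as large as their errors. The order of the group means, from SRF-RELA at 188 CPM to SRF-PDGFRB at 232 CPM, separates no neighbours beyond their SDs of 20.4 to 68.2 CPM.

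Beta-1-syntrophin (Sntb1, ENSMUSG00000060429, chromosome 15:55636388-55906949, minus strand) is the adaptor that holds signalling proteins at the complex. By replicate number, pMSCV stood at 26.8, 13.8 and 16.97 CPM and SRF at 11.8, 13.4 and 17.1 CPM. SRF-FOXO1 stood at 2.79, 6.19 and 0.714 CPM, SRF-RELA at 2.99, 15.2 and 3.96 CPM and SRF-ICA1L at 4.19, 13.7 and 6.64 CPM. The SRF-PDGFRB pair stood at 0.689 and 19.98 CPM. All 3 SRF-FOXO1 libraries lay below all pMSCV and all SRF libraries, the highest SRF-ICA1L library (13.7 CPM) lay just below the lowest pMSCV library (13.8 CPM), and replicate 2 was the highest library of every fusion line. The SRF-FOXO1 mean was 3.23 ± 2.77 CPM against 19.2 ± 6.77 CPM in pMSCV (SD, n = 3 each), a log2 fold change of -2.57 (SE 0.98) with an adjusted p of 0.159 (edgeR, quasi-likelihood test, Benjamini-Hochberg). DESeq2 gave -2.56 with an adjusted p of 0.0422. Against SRF the value was -2.12 (SE 0.96, adjusted p 0.250 in edgeR). In SRF-RELA and SRF-ICA1L the blocked values were -1.68 (SE 0.56) and -1.45 (SE 0.54), not called by edgeR in all 12 libraries. Without pMSCV replicate 2 the SRF-RELA value was -2.25 and called (adjusted p 0.0359), as it was without SRF-RELA replicate 2 (-2.43, adjusted p 0.0388 in edgeR). Without pMSCV replicate 1 it was -1.02 in SRF-RELA and -0.78 in SRF-ICA1L, neither called. Between libraries of the same number the log2 difference of SRF-RELA from pMSCV was -3.12, 0.14 and -2.07 in numbers 1, 2 and 3, so number 2 did not share it.

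Dystroglycan (Dag1, ENSMUSG00000039952, chromosome 9:108204634-108263958, minus strand) is the laminin receptor of the complex, cleaved into its alpha and beta parts from 1 precursor. Values in CPM, in the order of the replicates, were 326, 255 and 254 in pMSCV and 323, 297 and 261 in SRF. They were 419, 321 and 418 in SRF-FOXO1, 349, 386 and 316 in SRF-RELA and 375, 369.6 and 311 in SRF-ICA1L. SRF-PDGFRB had 297 and 347 CPM. The highest means were those of SRF-FOXO1, SRF-ICA1L and SRF-RELA, 386 ± 56.5, 352 ± 35.5 and 350.1 ± 35.04 CPM, against 278 ± 41.5 CPM in pMSCV (SD, n = 3 each). Their ranges still overlapped that of pMSCV, whose replicate 1 was high. The log2 fold change of SRF-FOXO1 was 0.47 (SE 0.16), with an adjusted p of 0.120 in edgeR's quasi-likelihood test and 0.0404 in DESeq2. In SRF-RELA and SRF-ICA1L it was 0.35 in each with the block (SE 0.11), and positive in all 3 same-numbered pairs of both lines, from 0.10 to 0.60. In edgeR their adjusted p was 0.0939 and 0.125.

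The sarcoglycans are single-pass proteins that form a unit in the membrane. Alpha-sarcoglycan (Sgca, ENSMUSG00000001508, chromosome 11:94962791-94976327, minus strand) varied widely. Its ratio of the highest to the lowest library was 41.0, close to 38.8 for Sntb1 and 38.3 for Lama2, and its lowest library rested on 9 counts. The 3 pMSCV libraries had 2.81, 14.9 and 10.98 CPM, in the order of their numbers, and the 3 SRF libraries 1.09, 2.24 and 8.85 CPM. Those of SRF-FOXO1 had 1.87, 1.501 and 4.86 CPM, those of SRF-RELA 0.636, 6.16 and 3.08 CPM and those of SRF-ICA1L 1.11, 3.66 and 7.74 CPM. SRF-PDGFRB showed both extremes, 0.413 and 16.95 CPM. Replicate 1 was the lowest library of every line but SRF-FOXO1, and each line's range overlapped that of pMSCV. In the 12 libraries with the block the log2 fold changes against pMSCV were -1.35 (SE 0.48) in SRF, -1.60 (SE 0.48) in SRF-RELA and -1.28 (SE 0.48) in SRF-ICA1L, with adjusted p-values of 0.280, 0.0779 and 0.182 (edgeR, quasi-likelihood test, Benjamini-Hochberg). All 9 same-numbered differences behind them were negative, between -0.31 and -2.68. In SRF-RELA, DESeq2 with the block called it (adjusted p 0.00884), and so did edgeR without SRF replicate 2 (-1.66, adjusted p 0.0253) or without SRF-RELA replicate 2 (-2.42, adjusted p 0.0388). In SRF-FOXO1 the value was -1.80 (SE 1.16) without a block.

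Beta-sarcoglycan (Sgcb, ENSMUSG00000029156, chromosome 5:73632749-73647790, minus strand) forms the core of that unit with delta-sarcoglycan. Counted by replicate 1, 2 and 3, its level in CPM was 72.2, 94.1 and 68.5 in pMSCV and 55.7, 55.7 and 66.2 in SRF. For the fusions it was 96.9, 72.1 and 107 in SRF-FOXO1, 60.1, 89.5 and 72.97 in SRF-RELA and 48.6, 84.2 and 73.3 in SRF-ICA1L. The pair of SRF-PDGFRB libraries had 68.2 and 106 CPM. The 3 SRF libraries lay below all pMSCV, SRF-FOXO1 and SRF-PDGFRB libraries. Sgcb averaged 59.2 ± 6.08 CPM in SRF and 92.1 ± 18.1 CPM in SRF-FOXO1 (SD, n = 3 each). The log2 fold change between those lines was 0.64 (SE 0.24), with an adjusted p of 0.210 (edgeR, quasi-likelihood test, Benjamini-Hochberg). Groups that do not overlap are common here: 9.16% of all genes for SRF against pMSCV, 35.4% for SRF-FOXO1 against SRF and 25.7% for SRF-PDGFRB against SRF. For SRF-RELA and SRF-ICA1L against SRF 0 members were so placed, beside 10.9% and 7.58%.

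Delta-sarcoglycan (Sgcd, ENSMUSG00000020354, chromosome 11:46896253-47988969, minus strand) was the member called in most comparisons with the block. In pMSCV, replicates 1 to 3 had 4.89, 9.92 and 10.8 CPM, and in SRF 8.18, 10.5 and 18.4 CPM. SRF-FOXO1 libraries had 19.5, 14.8 and 30.1 CPM, SRF-RELA libraries 13.7, 17.6 and 22.9 CPM and SRF-ICA1L libraries 14.3, 15.9 and 20.9 CPM. Those labelled SRF-PDGFRB had 10.3 and 15.5 CPM. Every library of SRF-FOXO1, SRF-RELA and SRF-ICA1L lay above all 3 pMSCV libraries, while SRF and SRF-PDGFRB overlapped them. Group means were 8.53 ± 3.19 CPM in pMSCV and 12.4 ± 5.38 CPM in SRF (SD, n = 3 each). They were 21.4 ± 7.82 CPM in SRF-FOXO1, 18.1 ± 4.63 CPM in SRF-RELA and 17.04 ± 3.46 CPM in SRF-ICA1L (SD, n = 3 each), and these 3 neighbours in the order did not differ beyond their spread.

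With replicate number as a block, Sgcd rose by a log2 fold change of 1.12 (SE 0.18) in SRF-RELA and 1.05 (SE 0.18) in SRF-ICA1L, about 2.18 and 2.07 times the pMSCV level. The adjusted p was 0.00776 in SRF-RELA and 0.0165 in SRF-ICA1L (edgeR, quasi-likelihood test, Benjamini-Hochberg). Without the block, in 17 libraries, the same changes were 1.08 and 0.997 with adjusted p-values of 0.504 and 0.721. All same-numbered pairs were higher: for numbers 1, 2 and 3 by 1.47, 0.82 and 1.08 in SRF-RELA and by 1.53, 0.68 and 0.95 in SRF-ICA1L. The call in SRF-RELA held in all 12 fits that left out 1 library (adjusted p at most 0.0478). The call in SRF-ICA1L was lost without pMSCV replicate 1 (adjusted p 0.0817), SRF-ICA1L replicate 1 (0.0958) or SRF-ICA1L replicate 2 (0.0837). In SRF-FOXO1, which does not pair with pMSCV by number, Sgcd had the largest value, 1.33 (SE 0.38), with an adjusted p of 0.0800 in edgeR and 0.0134 in DESeq2. With the block in all 17 libraries edgeR called it there (1.35, adjusted p 0.0173), in a fit that called 6.78% of all genes, but not in SRF-RELA (1.10, adjusted p 0.136) or SRF-ICA1L (1.04, adjusted p 0.239). In SRF with the block it was 0.53 (SE 0.18, adjusted p 0.277), and Sgcd was called in no comparison of a fusion line with SRF. Non-overlapping groups were 23.0% of all genes for SRF-FOXO1, 11.1% for SRF-RELA and 10.2% for SRF-ICA1L against pMSCV, and for SRF-PDGFRB, where 0 members were so placed, 15.9%.

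Laminin alpha-2 (Lama2, ENSMUSG00000019899, chromosome 10:26980036-27619758, minus strand) is the basement membrane ligand of alpha-dystroglycan. Its CPM values in replicate order were 15.5, 40.5 and 25.5 for pMSCV and 7.32, 19.5 and 25.01 for SRF. For SRF-FOXO1 they were 7.497, 5.53 and 14.2, for SRF-RELA 3.38, 18.1 and 12.96 and for SRF-ICA1L 7.42, 21.4 and 27.1. For SRF-PDGFRB they were 1.06 and 36.7. All SRF-FOXO1 libraries were below all pMSCV libraries, where groups did not overlap for 23.0% of all genes. The other lines overlapped pMSCV, and replicate 1 was the lowest library of every line but SRF-FOXO1. With the block Lama2 fell by 1.41 on the log2 scale in SRF-RELA (SE 0.26), with an adjusted p of 0.0121 (edgeR, quasi-likelihood test, Benjamini-Hochberg). The same-numbered differences were -2.17, -1.16 and -0.97. Without the block the change was -1.24 (adjusted p 0.816), and with the block in all 17 libraries it was -1.45 (adjusted p 0.4003 in edgeR). The call was lost without pMSCV replicate 1 (adjusted p 0.0530), SRF-RELA replicate 1 (0.0736) or SRF-RELA replicate 3 (0.0529). Blocked values were -0.74 (SE 0.25) in SRF and -0.64 (SE 0.25) in SRF-ICA1L, neither called. In SRF-FOXO1 the value was -1.58 (SE 0.92, adjusted p 0.344). An antisense gene, Gm48084, overlaps 631 bases of Lama2 exons, and since the strand setting of the counting is not given in the sources used here, reads of the pair cannot be told apart.

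Dysferlin (Dysf, ENSMUSG00000033788, chromosome 6:84008590-84211060, plus strand) patches torn plasma membrane in fibres and is not a member of the dystrophin complex itself. With replicates in order, pMSCV measured 2.997, 7.14 and 6.12 CPM and SRF 4.36, 4.02 and 10.2 CPM. SRF-FOXO1 measured 8.72, 5.77 and 16.01 CPM, SRF-RELA 5.78, 8.94 and 14.9 CPM and SRF-ICA1L 10.9, 7.77 and 14.3 CPM. SRF-PDGFRB measured 4.09 and 9.92 CPM. All SRF-ICA1L libraries lay above all pMSCV libraries, where groups did not overlap for 10.2% of all genes. In the other lines the ranges overlapped, and replicate 3 was the highest library in each line but pMSCV and SRF-PDGFRB. The blocked log2 fold change was 0.81 (SE 0.32) in SRF-RELA and 1.04 (SE 0.32) in SRF-ICA1L, with adjusted p-values of 0.160 and 0.113 (edgeR, quasi-likelihood test, Benjamini-Hochberg). Without pMSCV replicate 2 both were called, at 1.29 in SRF-RELA (adjusted p 0.0207) and 1.49 in SRF-ICA1L (0.0203). DESeq2 with the block gave 1.035 in SRF-ICA1L, with an adjusted p of 0.0279. In SRF the blocked value was 0.12 (SE 0.32). Antisense genes overlap 457 bases of its exons, with the same limit as for Lama2.

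Replicate number was tested in its own right. In the 12 libraries, an F test of the number with group as a covariate called 5 of 8 members, against 52.0% of all genes, so the set was near the background. The 5 were Lama2 (adjusted p 0.00101), Sgca (0.00331), Sgcd (0.00396), Dysf (0.0266) and Sgcb (0.0481) in edgeR. Utrn, Dag1 and Sntb1 were not called (0.129, 0.0941 and 0.276). Sgca averaged 1.41 CPM in the 4 libraries numbered 1, 6.74 CPM in those numbered 2 and 7.66 CPM in those numbered 3. For Lama2 the means were 8.40, 24.9 and 22.6 CPM, and for Sgcd 10.3, 13.5 and 18.3 CPM.

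The number accounted for 64.0% of the variance of log2 CPM for Lama2 and 63.0% for Sgca, and the group for 28.3% and 23.7%. The group share was the larger for Sgcd (56.3% group, 36.7% number), Dag1 (55.6% and 30.6%), Sntb1 (52.1% and 12.9%) and, by less, Dysf (42.6% and 36.4%). These 12 libraries hold more groups than replicate numbers, which by itself favours the group share. The shares were not adjusted for this, so a small excess of group, as in Dysf, does not rank it above number. Over all genes the medians were 19.5% for group and 49.6% for number. Leaving out 1 library at a time moved the count of 5 members to between 3 and 6, and it was 3 without SRF replicate 1 or 3, SRF-ICA1L replicate 3, or any 1 of the SRF-RELA libraries. What differed between cultures or libraries of different number is not given in the sources used here.

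**Figure D3:**
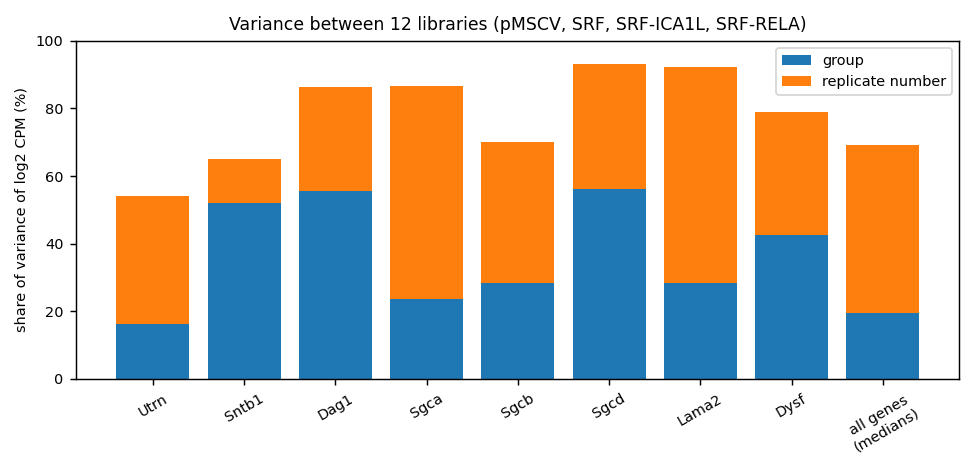
Share of the variance of log2 CPM between 12 libraries that line (blue) and replicate number (orange) account for, stacked, for the 8 genes and as medians over all genes. Replicate number takes 63.0% for Sgca and 64.0% for Lama2, and line takes over 50% for Sntb1, Dag1 and Sgcd.

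The 2 libraries labelled SRF-PDGFRB differed widely from each other. Between replicate 1 and replicate 2, Sgca was at 0.413 and 16.95 CPM, Sntb1 at 0.689 and 19.98 CPM and Lama2 at 1.06 and 36.7 CPM, while Dag1 (297 and 347 CPM) and Utrn (184 and 280.1 CPM) were closer. Each comparison of that line therefore rests on which library is used. Against pMSCV the log2 fold change of Sgca was -0.14 with both, 0.81 without replicate 1 and -4.51 without replicate 2. For Lama2 these were -0.52, 0.42 and -4.68, and for Sntb1 -0.89, 0.05 and -4.79. The lone library is assumed there to vary like those of the other groups, and 0 members were called in any of these fits.

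The members' levels can be set beside those of muscle differentiation genes in the same libraries. The summed level of 19 such genes (myogenin, embryonic myosin, troponins, acetylcholine receptor subunits and others, of 20 listed) was 1235, 725 and 1374 CPM in pMSCV replicates 1, 2 and 3 and 454, 374 and 716 CPM in SRF. It was 167, 126 and 175 CPM in SRF-FOXO1, 243, 616 and 308 CPM in SRF-RELA and 288, 335 and 611 CPM in SRF-ICA1L. Sgca and Lama2 were lowest in the library with the lowest sum, and Sgca was highest in the library with the highest. pMSCV replicate 1 went against this, with a sum of 1235 CPM beside only 2.81 CPM of Sgca and 15.5 CPM of Lama2. Sgcd and Dysf were highest in SRF-FOXO1 replicate 3, where the sum was 175 CPM, and lowest in pMSCV replicate 1. The summed level of 7 fibroblast and mesenchymal genes was also highest in SRF-FOXO1 replicate 3, at 7465 CPM, and stood at 881 CPM in pMSCV replicate 1. Its lowest value was 598 CPM in SRF-PDGFRB replicate 1, and in the other libraries it lay between 1070 and 4882 CPM. Among these 19 genes, 1 was at 0 counts in SRF-FOXO1 replicate 2, 1 in SRF-PDGFRB replicate 1 and none in the other libraries. The part of differentiation state or of fibroblast-like cells in the members' levels was not tested.

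**Figure D4:**
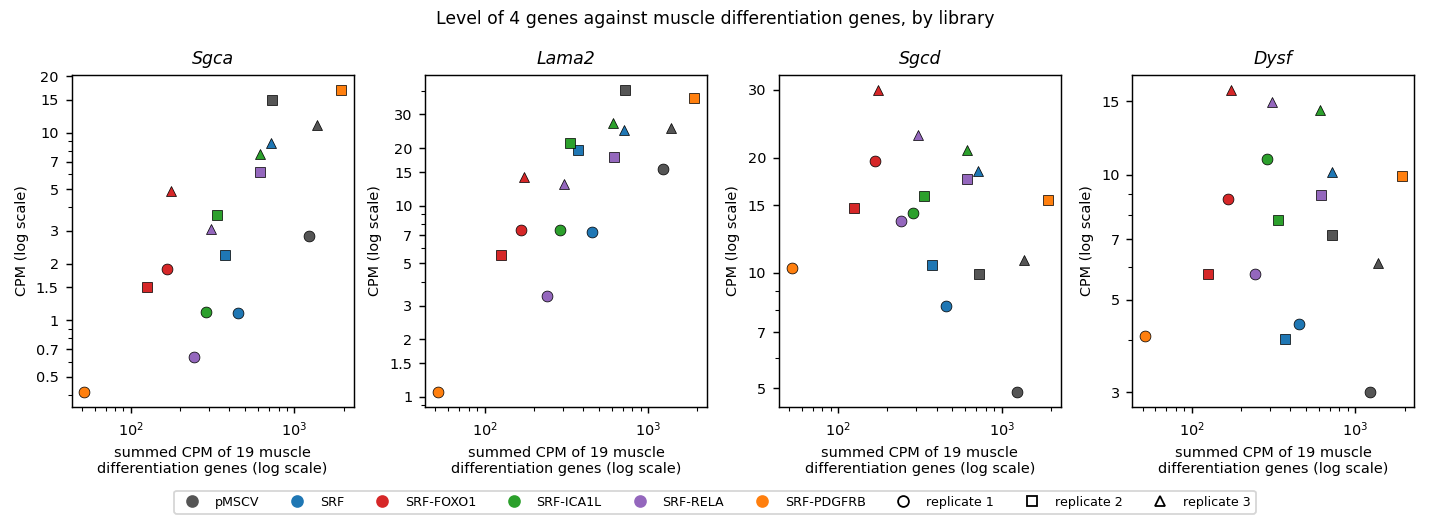
Level of Sgca, Lama2, Sgcd and Dysf (CPM, log scale) against the summed CPM of 19 muscle differentiation genes (log scale) in 17 libraries; colour gives the line and shape the replicate number. Sgca and Lama2 are lowest at the smallest sum of 51.9 CPM, and Sgcd and Dysf are lowest in pMSCV replicate 1 at a sum of 1235 CPM.

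Members also shared patterns with one another and with other genes, given here as Pearson correlations of log2 CPM over the 17 libraries, which share lines and replicate numbers. Sgca and Lama2 were the most alike pair (r = 0.92), followed by Sgcd and Dysf (0.90) and Sntb1 and Lama2 (0.69), and the most opposed pair was Sntb1 and Sgcd (-0.44). After the group means were subtracted, Sgca with Lama2 stood at 0.96 and Sgcd with Dysf at 0.93. The 2 sarcoglycans Sgca and Sgcd had r = 0.21 over all libraries but 0.79 within groups. The SRF-PDGFRB libraries stood far apart in Sgca, Lama2 and Sntb1, and correlations without them were not computed. Among 10006 genes with a mean of at least 5 CPM, those most like each member were as follows. Utrn was most like Spag9 (0.90) and Fryl (0.88), and Sntb1 like Pdlim3 (0.96) and Itga4 (0.93). Dag1 was most like Mospd2 (0.88) and Capn6 (0.85), a weaker likeness than that of the other members. Sgca was most like Cd82 (0.95) and Sirpa (0.93), Sgcb like Leprot (0.95) and Zscan21 (0.95), and Sgcd like Cbx6 (0.93) and Cr1l (0.92). Lama2 was most like the imprinted RNA gene H19 (0.94) and the calcium pump gene Atp2b4 (0.94), and Dysf like Col5a2 (0.90) and Fgf2 (0.90). The 2 most alike genes were not all the same by rank (Spearman) correlation or within groups. For the pairs named here, rank correlations ran from 0.66 (Utrn and Fryl) to 0.97 (Sntb1 and Pdlim3). Within groups, r ran from 0.68 (Dag1 and Capn6) to 0.98 (Sgca and Cd82).

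Of 13 further genes of the dystrophin complex, 9 have a row, among them Sntb2, Sgce, Sspn, Dtna, Dtnb, Drp2 and Nos1. None of these 9 was called in any comparison by edgeR, with or without the block. At an unadjusted p under 0.05 and without the block, 2 were higher in SRF-FOXO1 against pMSCV and 1 was lower in SRF. Of all genes, 20.9% and 3.34% were past that level in those lines, in either direction. The median log2 fold changes of the 9 there were 0.25 and -0.28, beside 0 and -0.02 over all genes. Against SRF, 4 of the 9 were higher in SRF-FOXO1 at that unadjusted level, where 19.2% of all genes were past it in either direction. Sntb2, the syntrophin closest to Sntb1, had a median of 75.3 CPM and a range of 55.2 to 147 CPM. The 16 enzymes that build the laminin-binding sugar of alpha-dystroglycan, among them Pomt1, all have a row, and 0 were called in any comparison. Their summed level stayed between 420.5 and 484 CPM in all 17 libraries, and their median log2 fold changes against pMSCV lay between -0.08 and 0.02.

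Some genes that work beside the complex, in laminin binding, membrane repair and the cytoskeleton, were called as well. Of 21 laminin, basement membrane and muscle integrin genes measured, 1 fell in SRF-FOXO1 against pMSCV without a block, where 0.710% of all genes were called. It was Itga7, the alpha subunit of the other laminin receptor of muscle (log2 fold change -2.07, SE 0.36, adjusted p 0.0336 in edgeR's quasi-likelihood test). With the block Itga7 also fell in SRF-RELA (-1.46, SE 0.18) and SRF-ICA1L (-1.26, SE 0.18), where 6.48% and 2.99% of all genes were called. In the same fit Lamc1, a gamma chain that pairs with Lama2, rose by 0.56 in SRF-RELA. The list's median was 0.18 in SRF-RELA and 0.15 in SRF-ICA1L, beside 0.01 over all genes in each.

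Of 16 genes for dysferlin partners and membrane repair, 3 fell with the block in SRF-RELA and 2 in SRF-ICA1L, and 0 rose, by the same edgeR test. Beside this and the counts below, 6.48% of all genes were called in SRF-RELA and 2.99% in SRF-ICA1L, in either direction. Bin1, which shapes T-tubules, fell in both (log2 fold changes of -0.74 and -0.62), as did the membrane-binding annexin Anxa6 (-0.87 and -0.76). Ano5, whose loss gives a disease like that of dysferlin, fell by 2.21 in SRF-RELA (SE 0.49, adjusted p 0.0259 in edgeR). It rested on few counts, with a median of 0.32 CPM and at most 2.03 CPM over the 17 libraries. Of 14 cytoskeletal linkers under the membrane, 2 fell in SRF-ICA1L, and in SRF-RELA 2 fell and 1 rose. The ankyrin gene Ank2 fell in both (-1.03 in SRF-RELA and -0.96 in SRF-ICA1L), as did the intermediate filament gene Des (-1.46 and -1.20). Synm, which encodes synemin, rose by 1.53 in SRF-RELA, with a median of 2.06 CPM over the 17 libraries. Muscle differentiation genes fell in the same fits, 9 of 19 in SRF-RELA and 7 of 19 in SRF-ICA1L with 0 higher, and their part in the changes of the neighbouring genes was not tested.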

How the data were processed

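RNA of 17 libraries (6 lines of C2C12 cells; poly(A) libraries from a stranded kit, per the labels' protocols) was measured as counts per gene, and the authors deposited 1 table of raw counts. Per the submitters' processing notes, reads were checked with FastQC 0.11.8, trimmed with Trimmomatic 0.39, aligned to GRCm38 with HISAT2 and counted with featureCounts (Subread 2.0.0). The strand setting and the annotation release are not given in the sources used here. Every gene of the deposited table has at least 10 counts in 3 or more libraries, so genes below that are not analysed here. Group and replicate number came from the sample titles.

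Counts were fitted in edgeR 4.0.16 (R 4.3.3) with TMM scaling, filterByExpr (all 15062 genes passed) and the robust quasi-likelihood test, with 1 term for group and p-values adjusted by Benjamini-Hochberg over all genes tested. The biological coefficient of variation was 36.5%, which limits what 3 libraries a group can show. CPM are counts scaled to library size with TMM factors, computed from the deposited counts. Replicate numbers were checked for pairing by correlating, over genes, the libraries' deviations from their group means: among SRF-RELA, SRF-ICA1L, SRF and pMSCV the 18 same-numbered pairs gave 0.392 to 0.789 and the 36 other pairs -0.585 to 0.114. On this evidence, which comes from the data and not from the labels, these 12 libraries were also fitted with the number as a block. SRF-FOXO1 paired with SRF (0.220 to 0.330) but not with pMSCV. The alternatives were DESeq2 1.42.0, RLE size factors, a filter of 50 counts in 3 libraries, other sets of libraries and leaving out each library. The edgeR fit was tested on simulated data, only as a check of the code. For the fit without a block these data had less spread between libraries than the real counts. Changes were put only in genes with high expected counts. How often real changes are found or missed was therefore not measured.

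The members and all gene lists were chosen with earlier results of these data known. All members are named, the 2 genes most correlated with each (mean of at least 5 CPM, prior count 2), and from each list the called genes with the largest and smallest changes; the values of some list genes are not reported here, though the list counts, sums and medians include them. Positions and exon lengths come from GENCODE M21 (GRCm38), promoters from RefSeq (GRCm38.p6).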

Additional observations from a re-analysis of the deposited data

How the results depend on the processing

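Of 72 log2 fold changes (8 genes in 9 comparisons, 17 libraries without a block), 49 kept 1 direction under every alternative run. The other 23 took both signs when single libraries were left out, and in all of these the change was smaller than its standard error. The lowest and highest values follow. For SRF against pMSCV this held for Dysf (-0.37 to 0.43). For SRF-ICA1L against pMSCV this held for Utrn (-0.025 to 0.27) and Sgcb (-0.36 to 0.001). For SRF-RELA against pMSCV this held for Utrn (-0.23 to 0.11) and Sgcb (-0.23 to 0.077). For SRF-PDGFRB against pMSCV this held for Utrn (-0.11 to 0.48), Sntb1 (-4.79 to 0.049), Sgca (-4.51 to 0.81), Sgcb (-0.20 to 0.42), Lama2 (-4.68 to 0.42) and Dysf (-0.41 to 0.86). For SRF-FOXO1 against SRF this held for Utrn (-0.085 to 0.052) and Sgca (-1.26 to 0.72). For SRF-ICA1L against SRF this held for Utrn (-0.21 to 0.096), Sgca (-0.77 to 1.32) and Lama2 (-0.26 to 0.49). For SRF-RELA against SRF this held for Sgca (-1.12 to 0.98). For SRF-PDGFRB against SRF this held for Utrn (-0.30 to 0.29), Sntb1 (-4.34 to 0.49), Sgca (-3.28 to 2.38), Sgcd (-0.26 to 0.47), Lama2 (-4.03 to 1.07) and Dysf (-0.60 to 0.74). Utrn in SRF-FOXO1 against SRF, at -0.009, also turned to 0.002 with RLE size factors, 0.002 in DESeq2, 0.01 with the filter of 50 counts, 0.01 with only these groups and 0.01 with only these groups and the replicate block. Lama2 in SRF-PDGFRB against SRF turned from 0.13 to -0.22 with the replicate block in all 17 libraries. The count of called members was 0 in every left-out fit without a block. In SRF-FOXO1 against pMSCV it was 3 in DESeq2 (9.07% of all genes) and 1 with the replicate block in 17 libraries (Sgcd, 1.35, adjusted p 0.0173 in edgeR). For SRF-ICA1L it was 1 with the block in 12 libraries and 4 in DESeq2 with it, and for SRF-RELA 2 and 5; DESeq2 with the block called 7.91% and 10.8% of all genes there, against 2.99% and 6.48% in edgeR. The count for replicate number ran from 3 to 6 in left-out fits, and was 3 without SRF replicate 1 or 3, SRF-ICA1L replicate 3, or any 1 of the SRF-RELA libraries. The cause of these differences was not tested. DESeq2 with the block and the block fits without single libraries were added after the data were seen. Depth limits the lowest values of Sgca, Sntb1 and Lama2, which rested on 9, 15 and 23 counts in SRF-PDGFRB replicate 1.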

Other observations

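Lists of cell markers, chosen with earlier results known, gave these values against pMSCV by edgeR with the block in the 12 libraries. In that fit 2.99% of all genes were called in SRF-ICA1L and 6.48% in SRF-RELA. Of 6 myoblast genes, Myod1 fell by 1.41 in SRF-ICA1L, and both Myod1 (-1.69) and Myf5 (-1.48) fell in SRF-RELA. Of the smooth muscle genes, 5 of 6 were tested with the block: Tagln, which encodes an actin-binding protein, rose by 2.50 in SRF-ICA1L, and Tagln and Lmod1 rose by 2.11 and 3.48 in SRF-RELA. Over the 17 libraries Tagln was low, at 0.231 to 3.90 CPM, and Lmod1 had a median of 12.6 CPM. Acta2, by far the most abundant of the list with a median of 2179 CPM, was not called. None of 7 fibroblast genes was called in any comparison by edgeR. Their median log2 fold change against pMSCV without a block was 1.05 in SRF-FOXO1, with 7 of 7 higher. An unadjusted p under 0.05 was reached there by 2 of the 7, beside 20.9% of all genes. Of 11 genes of other lineages 3 were measured, and none was called. The single call for SRF against pMSCV among all listed genes was Chrnd, a subunit of the acetylcholine receptor, which fell by 1.76 with the block.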
